A study of Mus musculus with 96 samples.

Results

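The 9 CC chemokine genes Ccl2, Ccl7, Ccl12, Ccl8, Ccl3, Ccl4, Ccl6, Ccl9 and Ccl24, which monocytes and macrophages are known to make, were followed in 4 cell isolates of the mouse heart over 28 days after myocardial infarction. They were taken by gene symbol from a list of names, and are 9 of the 50944 genes listed in every file. The rule used no measured value, but the list was chosen with earlier results of these data known. Male C57Bl/6J mice had the left anterior descending artery tied off for good at 12 to 14 weeks of age. Hearts were collected 1, 3, 7, 14 and 28 days later, or from mice without operation (Day 0). The controls were not operated on, so effects of the operation and of the infarct cannot be told apart. No mouse carried an engineered allele or a transgene. From the digested hearts, cardiomyocytes (CM) were spun down at low speed, hematopoietic cells (HC) were bound to beads against CD45, endothelial cells (EC) to beads against CD144, and fibroblasts (FB) were left on the dish after plating. Each of the 24 groups of cell type and day had 4 libraries of ribosome-depleted total RNA, 96 in all, each pooled from 3 mice, or from 2 where 1 was missing. The study calls these replicates both technical and biological, so a p-value speaks only of how pools varied, and some of that variation may be technical. The isolates of a day were taken from the same animals. The labels do not tie the replicate numbers of different isolates to shared pools, so the tests between isolates treat the libraries as independent. Each cell type had its own isolation procedure, and libraries were prepared in batches by cell type. Cell type, isolation procedure and preparation batch therefore cannot be told apart.

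CC chemokines are small secreted proteins with a pair of adjacent cysteines near the start of the mature protein. They bind G protein-coupled receptors of the Ccr family and draw leukocytes along a gradient into inflamed tissue. After infarction the Ccl2 to Ccr2 axis is known for calling monocytes from blood and spleen into the heart. Ccl2, Ccl7 and mouse Ccl12 are ligands of Ccr2, and mouse Ccl8 acts through Ccr8. Ccl3 and Ccl4 are closely related inflammatory chemokines, and Ccl3 binds Ccr1. Ccl6 and Ccl9 are rodent chemokines that bind Ccr1, and Ccl24, an eotaxin that draws eosinophils, binds Ccr3.

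The adjacent cysteines that give the family its name are shown in the coding sequence of 8 of the genes, to let them be told from one another. Each line holds 36 bases of the coding strand (GRCm38), lower case, with the codons of both cysteines in capitals. On chromosome 11 lie 8 members, and Ccl24 lies on chromosome 5. The window is in exon 2 of 3, except in Ccl6 and Ccl9, where it is in exon 3 of 4.
Ccl2, chr11:82036491-82036526, plus strand: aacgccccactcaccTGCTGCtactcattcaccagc
Ccl7, chr11:82046523-82046558, plus strand: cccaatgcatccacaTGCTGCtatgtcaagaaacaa
Ccl12, chr11:82102619-82102654, plus strand: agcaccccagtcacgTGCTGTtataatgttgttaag
Ccl8, chr11:82116041-82116076, plus strand: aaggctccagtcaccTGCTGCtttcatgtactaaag
Ccl4, chr11:83663467-83663502, plus strand: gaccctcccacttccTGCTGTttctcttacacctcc
Ccl6, chr11:83589371-83589406, minus strand: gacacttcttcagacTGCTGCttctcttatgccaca
Ccl9, chr11:83575911-83575946, minus strand: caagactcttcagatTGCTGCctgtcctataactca
Ccl24, chr5:135572650-135572685, minus strand: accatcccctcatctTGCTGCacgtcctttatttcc
Over the 36 pairs of members, the coding sequences were 47.3% to 69.8% identical, with a median of 52.4%. The closest pair was Ccl3 and Ccl4 at 69.8%, followed by Ccl7 and Ccl8 at 67.0% and Ccl6 and Ccl9 at 66.8%. No run of 31 bases was shared between the longest coding transcript of any member and any transcript of another member. Runs shared with other genes were absent in 6 members, and made up 4.03% of the Ccl9, 1.28% of the Ccl6 and 0.0791% of the Ccl24 transcript. The Ccl2 gene overlaps Gm17268 on the other strand, which had no reads, and the Ccl6 gene overlaps E230016K23Rik.

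Reads in genes ranged from 16.2 to 40.3 M per library in HC, 12.4 to 33.8 M in EC, 13.5 to 55.7 M in CM and 2.66 to 36.5 M in FB. Ribosomal RNA took 53.4% to 68.2% of them in CM and at most 35.6% elsewhere. Each list of defining markers had its highest summed level in its own isolate. Within HC on Day 0, the 4 cardiomyocyte markers (2107 ± 441.1 CPM) summed to more than the 4 hematopoietic markers (974.2 ± 78.4 CPM). There were 8 libraries that stood apart from their groups in the summed level of rare transcripts lying opposite an abundant gene, at 10.8 to 40.4 times the median of the rest of the group, where the next library had 3.54 times. In HC these were replicates 2 and 4 of Day 28, in FB replicate 4 of Day 28 and the shallow replicates 2 and 3 of Day 3 (2.66 and 3.51 M reads), and in EC replicate 3 of Day 28 and replicates 1 and 2 of Day 0. Where leaving them out ended a call, turned a direction or moved a fold printed here by over 1.5 times, both values are given. The study set aside outlying libraries of FB on Day 3 and HC on Day 28 without naming them, and all 96 were kept here. Levels are in CPM, reads scaled to library size, on the scale of a cell type's 24 libraries, except where isolates are set side by side, on the scale of all 96. Errors are SD over 4 libraries unless marked SE, and a gene is called where edgeR's quasi-likelihood test gave a Benjamini-Hochberg adjusted p under 0.05 over all genes tested.

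In HC each of the 9 genes was called higher on Day 1, on Day 3 or on both. Compared with Day 0, 8 of 9 were called higher on Day 1, 8 on Day 3, 6 on Day 7, 3 on Day 14 and 5 on Day 28, and none was called lower. Over all 18916 genes tested, the share called higher was 18%, 23.2%, 14.1%, 6.08% and 11.4% on those days. The median log2 fold change of the members was 1.80 on Day 1, against -0.105 over all genes, and 1.49 on Day 3, against -0.016. Day 1 and Day 7 of HC are deposited per transcript and the other days per gene, so Days 3, 14 and 28 against Day 0, Day 28 against Day 14 and Day 7 against Day 1 stay within 1 kind of file, and the other steps cross both kinds.

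**Figure D1:**
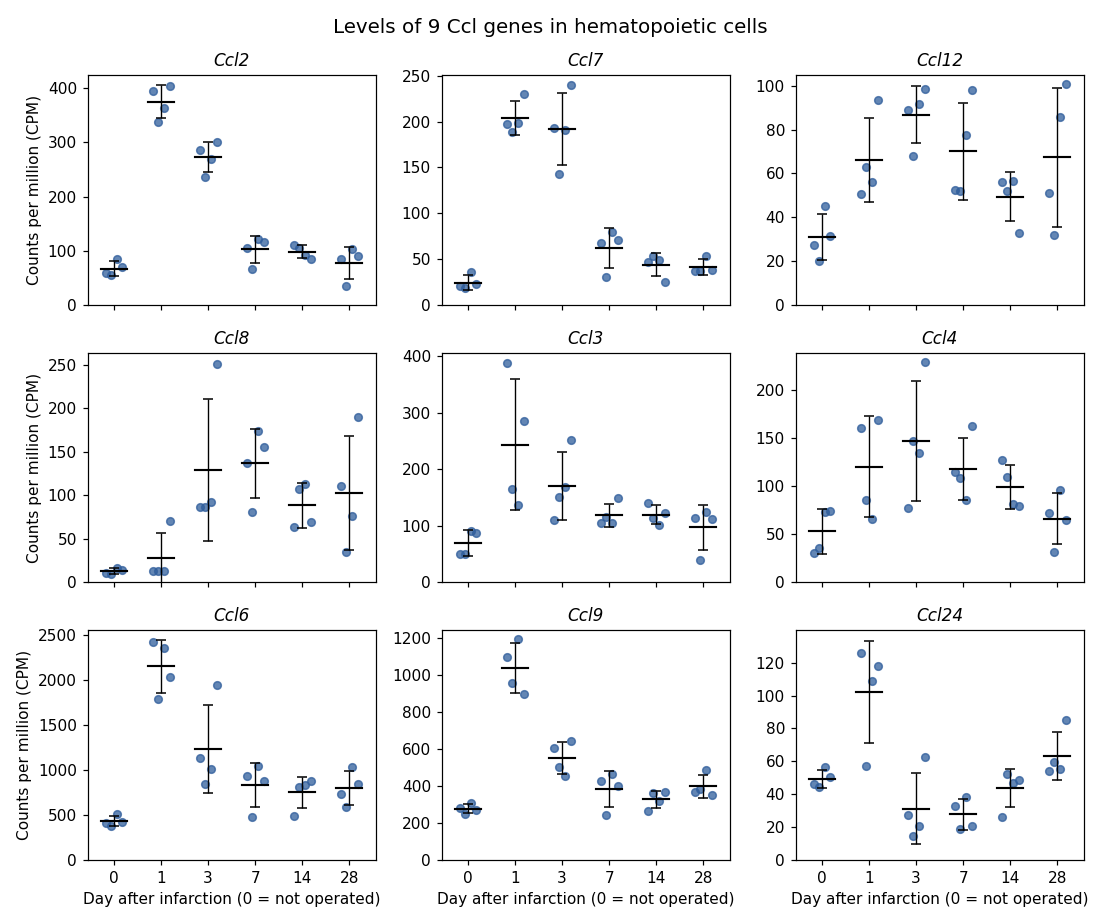
Levels of the 9 Ccl genes in HC libraries (CPM, linear axis from 0) by day after infarction, with 1 point per library, a bar at the mean of 4 libraries and error bars of 1 SD. Ccl2, Ccl7, Ccl6 and Ccl9 stand highest on Day 1, and Ccl8 reaches its highest mean, 136.7 CPM, on Day 7.

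Of the ligands of Ccr2, Ccl7 had the largest log2 fold change in HC on Day 1. Its levels on Day 0 were 20.2, 18.2, 35.5 and 22.5 CPM, and on Day 1 they were 196.8, 188.4, 198.5 and 230.5 CPM. Every Day 1 library was above every Day 0 library, a log2 fold change of 3.08 ± 0.28 (SE, adjusted p = 2.08e-08), or 8.46-fold. On Day 3 the libraries held 193.2, 142.9, 190.5 and 239.5 CPM and overlapped those of Day 1. By Day 7 the mean had come down to 61.99 ± 21.5 CPM, 1.63 ± 0.27 (SE) below Day 3 on the log2 scale (adjusted p = 0.000246). Ccl7 was still called above Day 0 on Day 14, at 0.85 ± 0.26 (SE, adjusted p = 0.0356), and on Day 28, at 0.77 ± 0.26 (SE, adjusted p = 0.0400). Those 2 late calls were weak. The Day 14 call was lost on leaving out any 1 of Day 0 replicates 1, 2 and 4 or Day 14 replicates 1, 2 and 3 (adjusted p from 0.0855 to 0.136). The Day 28 call was lost without any 1 of Day 0 replicates 1, 2 and 4 or Day 28 replicates 3 and 4 (0.0594 to 0.120), and without the libraries that stood apart (0.91, adjusted p = 0.0832).

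Ccl2, the main monocyte attractant, was also high on Days 1 and 3. HC libraries held 58.2, 55.1, 84.5 and 69.1 CPM on Day 0 and 395.6, 338.4, 363.1 and 404.7 CPM on Day 1. The days did not overlap, and the log2 fold change was 2.49 ± 0.24 (SE, adjusted p = 4.78e-08), or 5.62-fold. On Day 3 the levels were 285.6, 235.3, 270.2 and 300.2 CPM, all below the lowest Day 1 library, though the difference of -0.46 ± 0.23 (SE) was not called (adjusted p = 0.226). From Day 3 to Day 7 Ccl2 fell by 1.42 on the log2 scale (SE 0.24, adjusted p = 0.000278), to 104.5, 66.7, 121.3 and 116.7 CPM. Those Day 7 values overlapped Day 0, and Ccl2 was not called against Day 0 on Day 7 (0.62 ± 0.23 SE, adjusted p = 0.0521), Day 14 or Day 28.

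Ccl12, a Ccr2 ligand of mice, was called above Day 0 on every later day but Day 14. Its levels were 27.1, 20.1, 44.9 and 31.5 CPM on Day 0, 50.8, 63.1, 56.1 and 93.8 CPM on Day 1, and 89.0, 68.1, 91.8 and 98.6 CPM on Day 3. All libraries of both later days were above those of Day 0, at 1.09 ± 0.31 (SE, adjusted p = 0.00745) on Day 1 and 1.49 ± 0.32 (SE, adjusted p = 0.000501) on Day 3. The Day 3 libraries overlapped those of Day 1, and that difference was not called (0.40 ± 0.31 SE, adjusted p = 0.457). Ccl12 was also called higher on Day 7 (1.18 ± 0.31 SE, adjusted p = 0.00677) and Day 28 (1.13 ± 0.31 SE, adjusted p = 0.0134), and not on Day 14. The Day 28 call was lost without Day 0 replicate 2 or without Day 28 replicate 4 (adjusted p up to 0.0673).

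Ccl8, which acts through Ccr8 in mice, was first called on Day 3 and stayed higher on every later day. Day 0 libraries held 10.2, 9.53, 16.7 and 14.2 CPM, and Day 1 libraries 13.04, 13.1, 13.1 and 70.4 CPM. On Day 1, 3 libraries lay within the range of Day 0 and replicate 4 stood alone, and the difference of 1.12 ± 0.55 (SE) was not called (adjusted p = 0.109). Levels on Day 3 were 86.2, 86.8, 91.8 and 251.3 CPM, on Day 7 136.8, 81.0, 173.6 and 155.2 CPM, on Day 14 64.0, 107.6, 113.2 and 69.1 CPM, and on Day 28 110.5, 34.9, 76.1 and 190.0 CPM. Each of these libraries was above the highest of Day 0. The log2 fold changes against Day 0 were 3.35 ± 0.58 (SE) on Day 3, 3.43 ± 0.59 on Day 7, 2.81 ± 0.57 on Day 14 and 3.02 ± 0.58 on Day 28 (adjusted p from 6.30e-05 to 0.00187). The 4 later days overlapped one another, and no step between them was called. Replicate 4 was the high library on both Day 1 and Day 3. Without Day 3 replicate 4 the Day 3 change was 2.81 (adjusted p = 0.000424). The rise from Day 1 to Day 3, 2.23 ± 0.55 (SE, adjusted p = 0.00921), was 1.68 and no longer called without Day 3 replicate 4 (adjusted p = 0.0546), and 3.30 without Day 1 replicate 4. Ccl8 was the one member called higher on Day 7 than on Day 1 in HC, at 2.31 ± 0.55 (SE, adjusted p = 0.00438), or 3.38 without Day 1 replicate 4.

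Ccl3 and Ccl4, inflammatory chemokines of macrophages, varied widely between HC libraries. Ccl3 held 50.5, 50.1, 90.8 and 87.4 CPM on Day 0 and 388.3, 164.3, 137.1 and 284.7 CPM on Day 1. The Day 1 libraries were widely spread but all lay above Day 0, at 1.80 ± 0.35 (SE, adjusted p = 0.000239). On Day 3 the change was 1.29 ± 0.34 (SE, adjusted p = 0.00378), and none of the later days was called. Ccl4 held 30.1, 35.7, 72.7 and 73.6 CPM on Day 0 and 160.7, 85.6, 65.7 and 169.2 CPM on Day 1. Its days overlapped, since Day 1 replicate 3 lay below 2 of the Day 0 libraries, and the call of 1.18 ± 0.38 (SE, adjusted p = 0.0159) was lost without Day 0 replicate 1, Day 1 replicate 1 or Day 1 replicate 4 (adjusted p from 0.0559 to 0.0638). On Day 3, with 77.5, 147.1, 134.9 and 228.6 CPM, Ccl4 stood above all Day 0 libraries (1.47 ± 0.38 SE, adjusted p = 0.00316). Its Day 7 call (1.15 ± 0.38 SE, adjusted p = 0.0268) was lost without Day 0 replicate 1 or 2 or Day 7 replicate 4 (adjusted p up to 0.0910).

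Ccl6 and Ccl9, the Ccr1 ligands of rodents, had the most reads of the 9 genes in HC. Ccl6 held 416.2, 380.1, 516.6 and 425.9 CPM on Day 0 and 2427, 1791, 2364 and 2041 CPM on Day 1, far outside the range of Day 0 (2.31 ± 0.26 SE, adjusted p = 4.09e-07). On Day 3 it was at 1140, 849.2, 1011 and 1944 CPM, still above Day 0 (1.51 ± 0.26 SE, adjusted p = 4.66e-05). The decrease from Day 1 to Day 3 of -0.80 ± 0.25 (SE, adjusted p = 0.0406) was lost on leaving out any 1 of Day 1 replicates 1 and 3 or Day 3 replicates 1, 2 and 3 (adjusted p from 0.0943 to 0.113). Ccl9 held 280.4, 245.5, 306.9 and 272.0 CPM on Day 0, then 1097, 954.3, 1192 and 897.4 CPM on Day 1, with no overlap (1.90 ± 0.18 SE, adjusted p = 2.30e-08). On Day 3 it was at 602.9, 501.2, 455.8 and 641.7 CPM, between the ranges of both earlier days, and lower than on Day 1 by -0.91 ± 0.17 (SE, adjusted p = 0.00111). Both genes stayed near that level or lower from Day 7 on. Ccl6 was called above Day 0 on Day 7 (0.94 ± 0.25 SE), Day 14 (0.79 ± 0.25 SE) and Day 28 (0.88 ± 0.25 SE), with adjusted p of 0.00754, 0.0421 and 0.0163. The Day 14 call held only without Day 14 replicate 1, and the Day 28 call was lost without Day 0 replicate 2 or Day 28 replicate 3 (0.0540 and 0.0516). Ccl9 was called on Day 7 (0.47 ± 0.17 SE, adjusted p = 0.0441) and on Day 28 (0.52 ± 0.17 SE, adjusted p = 0.0327). The Day 7 call held only without Day 7 replicate 2. The Day 28 call was lost without Day 0 replicates 1, 2 or 4 or Day 28 replicate 3 (0.0608 to 0.0993), and without the libraries that stood apart (0.63, adjusted p = 0.0545).

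Ccl24, the eotaxin, rose and fell within days. Its HC levels were 46.5, 44.1, 56.5 and 50.6 CPM on Day 0, 126.2, 57.2, 108.7 and 117.8 CPM on Day 1, and 27.6, 14.5, 20.7 and 62.4 CPM on Day 3. The lowest Day 1 library lay just above Day 0, and 1 Day 3 library lay above that one, so Days 1 and 3 overlapped. The rise on Day 1 was 1.05 ± 0.35 (SE, adjusted p = 0.0191) and was 0.94 and lost without Day 1 replicate 1 (adjusted p = 0.0562). Against Day 0, Day 3 was not called (-0.66 ± 0.35 SE, adjusted p = 0.131), while against Day 1 it was lower by -1.71 ± 0.36 (SE, adjusted p = 0.00246). On Day 7, at 33.1, 18.8, 38.3 and 20.9 CPM, all libraries were below Day 0, but the difference was not called (-0.83 ± 0.35 SE, adjusted p = 0.0825). On Day 28 the mean was 63.4 ± 14.5 CPM, which was not called against Day 0 either.

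The steps between later days in HC differed by gene. From Day 1 to Day 3, 1 member was called higher (Ccl8) and 3 lower (Ccl24, Ccl9, Ccl6), 4 of 9 against 12.2% of all genes called in either direction. From Day 3 to Day 7, 3 were called lower (Ccl7, Ccl2, Ccl9), against 20% of all genes in either direction. The Ccl9 step, -0.52 ± 0.17 (SE, adjusted p = 0.0355), was lost without Day 3 replicate 1 or 4 or Day 7 replicate 2 or 4, and was 0 on the log2(TPM + 1) scale. From Day 1 to Day 7, 7 of 9 were called, against 22.3% of all genes, but 1 was called with limma on either TPM scale. Ccl8 was higher, and Ccl2 (-1.88 ± 0.24 SE), Ccl24 (-1.88 ± 0.36), Ccl7 (-1.72 ± 0.27), Ccl9 (-1.43 ± 0.17), Ccl6 (-1.37 ± 0.26) and Ccl3 (-1.04 ± 0.34) were lower. The Ccl3 call was lost without Day 1 replicate 1 or 4 or Day 7 replicate 1, 2 or 3 (adjusted p from 0.0693 to 0.159). No member was called between Day 7 and Day 14 or between Day 14 and Day 28 in HC.

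The make-up of the HC isolate moved over the same days. The summed level of 7 neutrophil markers went from 193.4 ± 64.2 CPM on Day 0 to 2375 ± 647.4 CPM on Day 1 and 692.7 ± 241.4 CPM on Day 3, with all 7 genes called higher on both days. The 7 monocyte markers summed to 1945 ± 136.0, 3662 ± 265.4 and 1971 ± 205.1 CPM, and 7 macrophage markers to 5122 ± 400.0, 3879 ± 392.5 and 5374 ± 646.5 CPM. Among 7 markers of resident macrophages, 4 were called lower and 1 higher on each of Day 1 and Day 3. The 4 cardiomyocyte markers in HC went down from 2107 ± 441.1 CPM on Day 0 to 472.2 ± 65.4 CPM on Day 1. The part of these shifts in the Ccl levels was not tested. In a bulk isolate, more cells of a type and more RNA per cell cannot be told apart.

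In FB from unoperated hearts, measured after digestion and plating, Ccl2 and Ccl7 were abundant and the other members were scarce. The part of the isolation procedure in these levels was not tested. Ccl2 held 330.7, 313.6, 474.7 and 479.0 CPM on Day 0, more than in any HC library of that day. On Day 1 it was at 706.8, 692.8, 747.8 and 927.8 CPM, above all Day 0 libraries (0.94 ± 0.28 SE, adjusted p = 0.0208), or 1.92-fold. Ccl7 went from 157.6, 158.8, 219.9 and 210.3 CPM to 366.0, 319.9, 369.0 and 436.8 CPM, also without overlap (1.00 ± 0.32 SE, adjusted p = 0.0311). Neither was called against Day 0 on any later day. On Day 1, 5 of the 6 members tested in FB were called higher, against 11.6% of all genes. Apart from Ccl2 and Ccl7 these were Ccl8 (4.57 ± 0.766 to 9.61 ± 1.83 CPM), Ccl9 (0.758 ± 0.147 to 2.475 ± 0.781 CPM) and Ccl6 (2 to 8 reads per library on Day 0, 10 to 32 on Day 1). The count was fragile, and leaving out any single library left 1 to 4 members called. The Ccl2 call was lost without FB Day 0 replicate 1 or 2 or Day 1 replicate 4 (adjusted p up to 0.0725), and the Ccl7 call on leaving out any library but Day 0 replicate 3 or Day 1 replicate 2 (up to 0.0940). The Ccl8 call was lost on leaving out any library but Day 1 replicate 2 (up to 0.108), and the Ccl6 call on leaving out any but Day 0 replicate 2 or Day 1 replicates 3 and 4 (up to 0.111). Ccl9 was called in all 8 omissions. On the log2(TPM + 1) scale none of the 5 was called, where 231 of 18658 genes were called higher.

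Ccl9 was the member that changed most in FB. Its libraries held 0.665, 0.824, 0.932 and 0.613 CPM on Day 0, 1.92, 3.50, 1.81 and 2.67 CPM on Day 1, and 45.5, 57.4, 48.5 and 83.4 CPM on Day 3 (84.99 to 1327 reads). It then fell to 11.6, 4.97, 27.0 and 18.8 CPM on Day 7, 4.03, 3.81, 5.98 and 4.59 CPM on Day 14 and 4.05, 1.89, 2.39 and 4.32 CPM on Day 28. Every library after Day 0 was above every Day 0 library. The log2 fold change against Day 0 was 6.27 ± 0.45 (SE, adjusted p = 1.31e-09) on Day 3, 4.35 ± 0.42 on Day 7, 2.59 ± 0.41 on Day 14 and 2.06 ± 0.41 on Day 28. Without the libraries that stood apart, the Day 3 change was 6.41 (adjusted p = 2.50e-08) and the Day 28 change 1.88 (adjusted p = 0.0348). Ccl9 was called higher on Day 3 than on Day 1 (4.58 ± 0.41 SE) and lower on Day 7 than on Day 3 (-1.92 ± 0.36 SE, adjusted p = 0.000429). On log2(TPM + 0.1) the step from Day 3 to Day 7 was 0.07 (limma, adjusted p = 0.919). Over the alternatives the change against Day 0 went down to 0.94 on Day 7, 0.25 on Day 14 and 0.15 on Day 28. Not every alternative called those 3 days, while all called Day 3 (lowest 1.16).

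Few other members moved in FB after Day 1. On Day 3, 2 of 6 were called higher, against 25.8% of all genes, which is near that background. The second, Ccl6, was at 0.240, 6.08, 6.07 and 0.483 CPM, and the high pair were the shallow libraries that stood apart, with 9 and 12 reads. Without them the change was 1.33 and not called (adjusted p = 0.0939). Ccl9 alone was called higher on Day 7 (9.83% of all genes), Day 14 (8.25%) and Day 28 (2.88%). Ccl8 was the 1 member called lower, on Day 14 (-1.16 ± 0.37 SE, adjusted p = 0.0432, against 2.62% of all genes lower), and that call held only without Day 14 replicate 2. From Day 1 to Day 3, Ccl9 was called higher and Ccl7 lower (-1.15 ± 0.32 SE, adjusted p = 0.0124), 2 of 6 against 25.4% of all genes in either direction. Without the libraries that stood apart the Ccl7 change was -0.66 and not called (adjusted p = 0.158). From Day 3 to Day 7, Ccl9 and Ccl6 were called lower, against 19.5% of all genes, and the Ccl6 change turned to 0.73 without those libraries. That Ccl6 call was also lost on leaving out any 1 of FB Day 3 replicates 2 and 3 or Day 7 replicates 1, 2 and 3 (adjusted p up to 0.366). Ccl12 had at most 4 reads in any FB library, Ccl24 at most 11 and Ccl3 at most 11, and they were not tested in FB.

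**Figure D2:**
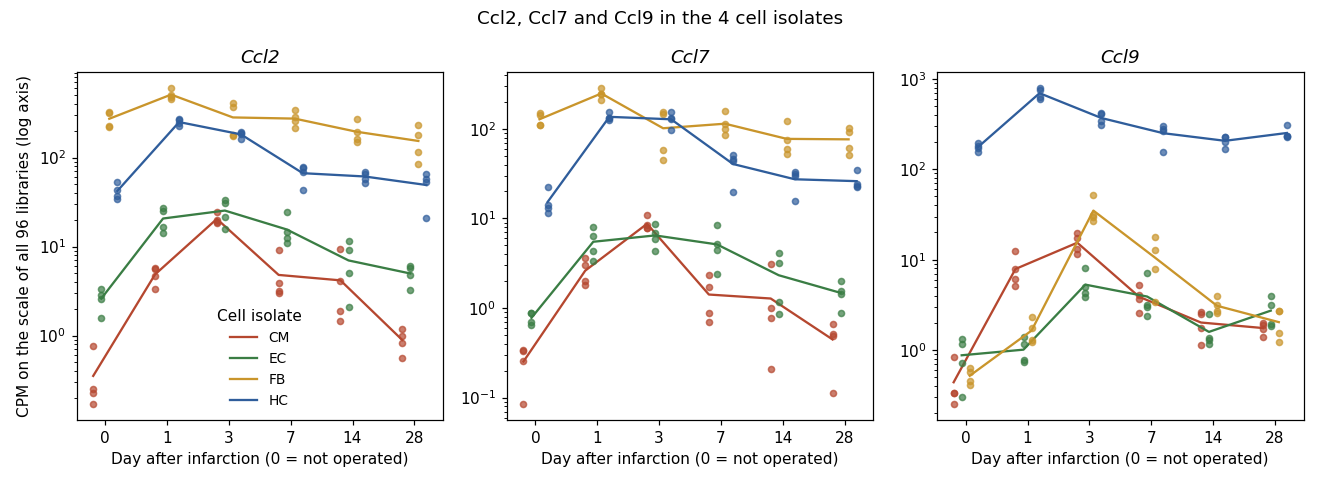
Levels of Ccl2, Ccl7 and Ccl9 (CPM on a scale shared by all 96 libraries, log axis) in CM, EC, FB and HC by day after infarction, 1 point per library and lines through the means of 4. The FB mean lies above the HC mean for Ccl2 on every day. On Day 3 the libraries overlap (175.3 to 412.1 CPM in FB, 161 to 196.4 CPM in HC). The FB line for Ccl9 peaks on Day 3 at a mean of 34.9 CPM on that scale.

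EC held little of the 9 genes on Day 0 and gained mainly Ccl2 and Ccl7. Ccl2 was at 4.57, 2.49, 4.91 and 3.73 CPM on Day 0, 37.8, 24.4, 20.6 and 39.2 CPM on Day 1, and 32.1, 50.6, 23.5 and 47.2 CPM on Day 3. Both later days lay wholly above Day 0 and overlapped each other, with log2 fold changes of 2.96 ± 0.42 (SE, adjusted p = 7.04e-05) and 3.29 ± 0.43 (SE, adjusted p = 3.90e-06). It was still higher on Day 7 (2.56 ± 0.42 SE), at 21.5, 16.3, 36.4 and 18.4 CPM. Ccl7 was higher on the same days, from 1.18 ± 0.207 CPM on Day 0 to 8.11 ± 3.10 CPM on Day 1 and 9.75 ± 2.80 CPM on Day 3 (2.78 ± 0.46 and 3.04 ± 0.46, SE). Ccl9 rose later than both, from 1.35 ± 0.752 CPM on Day 0 and 1.49 ± 0.458 CPM on Day 1 to 7.999 ± 3.01 CPM on Day 3 (2.57 ± 0.43 SE against Day 0, adjusted p = 6.07e-05). Without the Day 0 libraries that stood apart, the Ccl9 change was 3.41 (adjusted p = 0.000105). It was the 1 member called higher on Day 3 than on Day 1 in EC, 2.42 ± 0.43 (SE, adjusted p = 0.000265), against 13.2% of all genes.

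Of the 7 members tested in EC, 2 were called higher on Day 1, 4 on Day 3, 5 on Day 7, 2 on Day 14 and 2 on Day 28, against 9.86%, 23.2%, 18%, 12.8% and 16.3% of all genes, and none was lower. The further calls were Ccl8 on Days 3 and 7, Ccl4 on Day 7 and Ccl6 on Day 28, each with libraries that overlapped Day 0. Ccl8 had 0, 9, 0 and 1 reads on Day 0 and 9 to 17 on Day 3, where its call was lost on leaving out any library but Day 0 replicate 2 (adjusted p up to 0.129). Its Day 7 call was lost on leaving out any library but Day 0 replicate 2 or Day 7 replicates 2 and 4 (up to 0.115). Ccl4 had 0, 7, 1 and 1 reads on Day 0 and 15, 5, 37 and 21 on Day 7, and its call was lost without Day 7 replicate 3 (adjusted p = 0.0529). The Ccl6 call of Day 28 was lost without Day 0 replicate 4 or Day 28 replicate 3 (up to 0.119), and was 2.06 and lost without the libraries that stood apart (adjusted p = 0.106). Without the libraries that stood apart, the Day 1, Day 3 and Day 7 calls were all kept, with larger changes for Ccl8 (4.36 on Day 3 and 4.79 on Day 7, from 2.22 and 2.64), for Ccl4 on Day 7 (4.41, from 3.24) and for Ccl9 on Day 7 (2.96, from 2.11), while none was left on Day 14 and Ccl9 alone on Day 28 (2.20, adjusted p = 0.00964). The Ccl2 call of Day 14 (1.39 ± 0.42 SE) was also lost without EC Day 0 replicate 2 or Day 14 replicate 2 or 3, and that of Ccl7 (1.54 ± 0.46 SE) without Day 14 replicate 2 or 3.

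In CM all members tested stood highest on Day 3, at low levels. Of the 8 tested, 7 were called higher on Day 1, 8 on Day 3, 8 on Day 7, 5 on Day 14 and 2 on Day 28, against 6.8%, 16%, 8.92%, 8.05% and 2.49% of all genes. With limma on log2(TPM + 1), where genes near 0 hardly move, 2 were called on Day 1, 2 on Day 7 and none on Days 14 and 28. On that scale 129, 341, 414 and 0 of 14535 genes were called higher on Days 1, 7, 14 and 28. Ccl6 had the most reads, at 0.196, 0.189, 0.220 and 0.0479 CPM on Day 0 and 7.76, 9.18, 8.98 and 12.04 CPM on Day 3. Every Day 3 library was far above Day 0 (5.89 ± 0.40 SE, adjusted p = 4.41e-10). Ccl2 went from 0.0652, 0.0710, 0.220 and 0.0479 CPM to 5.55, 5.03, 6.52 and 5.21 CPM (5.86 ± 0.56 SE, adjusted p = 5.40e-08). Ccl7 and Ccl9 changed by 5.0 ± 0.56 and 4.95 ± 0.37 (SE). Ccl8, Ccl12, Ccl3 and Ccl4 had at most 1 read in any CM library of Day 0, so no fold is given. On Day 3 they had 47 to 74, 29 to 62, 25 to 38 and 15 to 30 reads per library. Ccl24 had no read on Day 0 and 3 to 12 on Day 3, and was not tested.

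The CM peak was brief. From Day 1 to Day 3, 7 of 8 members were called higher (all but Ccl3), against 9.01% of all genes, and from Day 3 to Day 7 all 8 were called lower, against 5.83%. The falls ranged from -1.76 ± 0.39 (SE) for Ccl3 to -3.55 ± 0.42 for Ccl12. The 7 higher calls were 5 to 7 on leaving out 1 library, since Ccl6 was lost without Day 1 replicate 1, 2 or 3 or Day 3 replicate 2, 3 or 4 (adjusted p up to 0.125), and Ccl9 without Day 1 replicate 1, 2 or 3 or Day 3 replicate 2 or 4 (up to 0.0835). The 8 lower calls were 7 or 8, Ccl4 being lost without CM Day 7 replicate 1 (-1.52, adjusted p = 0.0800). Against Day 0, the Ccl12 call of Day 7 was lost without Day 0 replicate 1, 2 or 4 or Day 7 replicate 2 or 4 (adjusted p up to 0.161), and the Ccl7 call of Day 14 without Day 0 replicate 4 or Day 14 replicate 2 (up to 0.181). On Day 28 Ccl6 and Ccl9 were still called above Day 0 (2.66 ± 0.46 and 1.83 ± 0.43 SE), of which Ccl9 was lost without Day 0 replicate 1, 3 or 4 or Day 28 replicate 3 or 4 (adjusted p up to 0.0769). From Day 14 to Day 28, Ccl2 and Ccl3 were called lower, and Ccl2 was at -1.51 and not called without CM Day 14 replicate 2 (adjusted p = 0.0702). The Ccl3 call was lost without Day 14 replicate 1, 2 or 4 or Day 28 replicate 2, 3 or 4 (up to 0.0863).

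**Figure D3:**
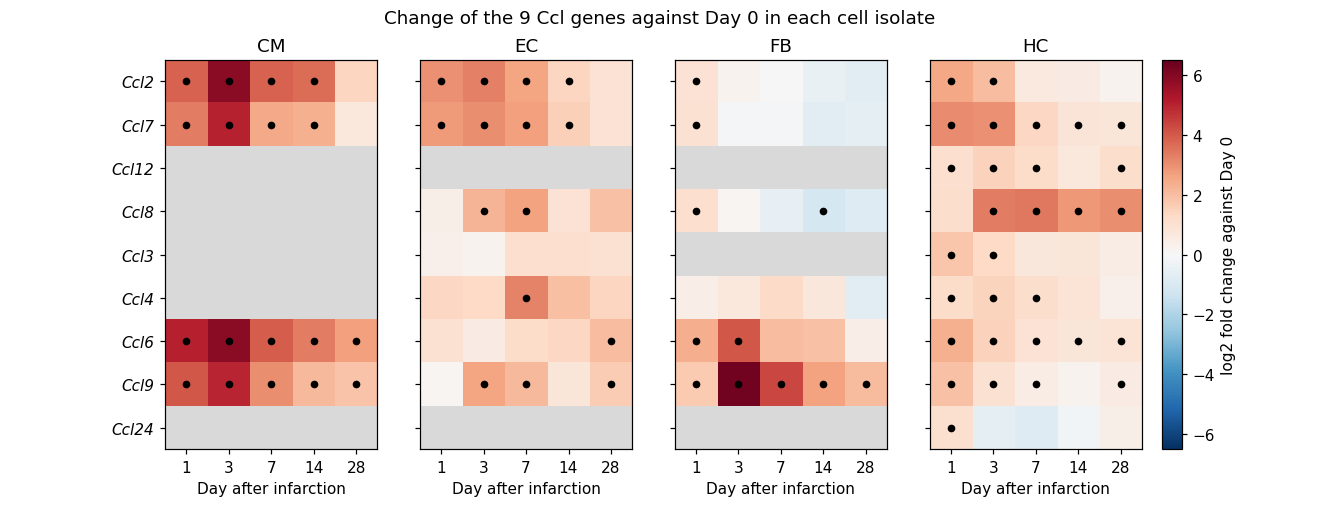
Log2 fold change against Day 0 of each Ccl gene on Days 1, 3, 7, 14 and 28 in the 4 isolates, as colour, with dots on called changes and grey where a gene was not tested or a group had 3 or fewer reads in every library. The HC block stays coloured for Ccl8 through Day 28 (3.02), the CM block is deepest on Day 3, and Ccl9 is the deepest gene of the FB block (6.27 on Day 3).

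The levels in CM, FB and EC were then set against those in HC of the same day. On Day 3 the mean level of the 9 genes in CM was 1.99% to 11.2% of that in HC. The 4 hematopoietic markers (Ptprc, Cd53, Itgal, Itgax) were at 2.175%, 7 macrophage markers at 2.91%, 7 monocyte markers at 3.58% and 7 neutrophil markers at 15.1%. The members were Ccl2 at 11.2%, Ccl12 at 7.15%, Ccl7 at 6.82%, Ccl8 at 5.62%, Ccl6 at 4.24%, Ccl9 at 4.185%, Ccl24 at 2.54%, Ccl3 at 2.32% and Ccl4 at 1.99%. These percentages moved with the choice of scale: CM reads are mostly ribosomal RNA, and the factor that sets CM libraries beside the others was 0.268 to 0.324 times the one within CM, while in HC it was 1.46 to 1.64 times. Within CM, the marker sums were higher on Day 3 as well, going from 0.196 to 0.587 CPM on Day 0 to 5.14 to 7.21 CPM on Day 3 for the hematopoietic markers, all but Itgax having reads on Day 0. The macrophage markers went from 1.48 to 1.91 CPM to 20.7 to 38.6 CPM, and all 7 were called higher on Day 3. The part of HC or macrophage RNA in the CM values was not tested.

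In FB on Day 3, Ccl9 was at 9.475% of its HC level, where the hematopoietic markers were at 0.355% and the macrophage markers at 0.301%. Other leukocyte lists were higher, with the monocyte markers at 29.6% (55.2% on Day 0), the T and NK cell markers at 29.1%, the neutrophil markers at 6.155% and those of resident macrophages at 0.518%. Without the shallow pair of libraries that stood apart, Ccl9 was at 11.1%, the hematopoietic markers at 0.0986%, the macrophage markers at 0.186%, the monocyte markers at 44.1%, the T and NK cell markers at 4.48%, the neutrophil markers at 11.8% and those of resident macrophages at 0.692%. The macrophage sum in FB was 6.65 to 6.90 CPM on Day 0 and 9.84 to 28.4 CPM on Day 3, with 4 of 7 called higher and all 7 with reads, and the hematopoietic sum on Day 3 ran from 1.405 to 11.5 CPM. Ccl6, the other Ccr1 ligand of the pair, was at 0.216% of HC in FB on Day 3, or at 0.0279% without the shallow pair. The 4 fibroblast markers in FB summed to 1916 ± 56.6 CPM on Day 0, 1800 ± 88.6 CPM on Day 1 and 953.4 ± 220.4 CPM on Day 3. The 4 cardiomyocyte markers in FB summed to 29.4 ± 9.87 CPM on Day 0 and 229.0 ± 254.7 CPM on Day 3. The part of leukocyte RNA and of these shifts in the FB values was not tested. Ccl2 in FB was 648% of its HC level on Day 0 and 204% on Day 1, and Ccl7 839.5% and 182%. In EC, Ccl2 went from 6.16% of the HC level on Day 0 (7.05% without the libraries that stood apart) to 23.3% on Day 7, and Ccl7 from 5.10% to 12.7%. From Day 3 to Day 7 both levels fell, mean Ccl2 from 25.4 to 15.6 CPM in EC and from 182.6 to 66.9 CPM in HC. The hematopoietic markers in EC were between 0.2455% and 0.796% over all 6 days. These hematopoietic marker sums were 2.79 to 3.58 CPM on Day 0 and 3.14 to 4.38 CPM on Day 3 in EC. Other marker sums moved with the Ccl genes there. The monocyte markers summed to 34.3 ± 4.85 CPM on Day 0, 160.1 ± 34.3 CPM on Day 3 and 188.6 ± 52.7 CPM on Day 7, and the macrophage markers to 11.6 ± 3.12, 16.1 ± 3.27 and 32.3 ± 5.23 CPM. The 4 fibroblast markers, from the isolate richest in Ccl2 and Ccl7, summed to 82.9 ± 10.9, 140.1 ± 21.3 and 216.2 ± 76.5 CPM. The 4 cardiomyocyte markers in EC went down on those days, from 1941 ± 432.7 to 894.6 ± 205.4 and 770.7 ± 270.9 CPM. The part of all these shifts in the EC values was not tested.

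**Figure D4:**
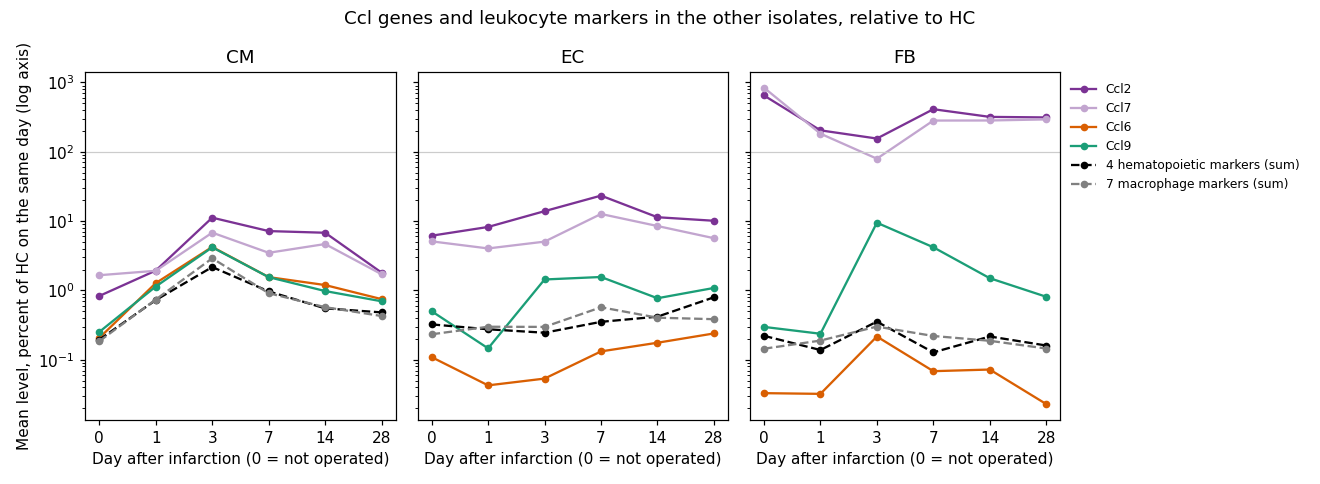
Mean level of Ccl2, Ccl7, Ccl6, Ccl9 and summed leukocyte markers in CM, EC and FB as percent of the HC mean of the same day (log axis, scale of all 96 libraries), by day after infarction. In CM the Ccl lines and the dashed marker lines are all highest on Day 3, while in FB Ccl9 reaches 9.475% on Day 3 with markers at 0.301% and 0.355%.

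Compared directly, HC held the higher level of most members. On Day 0 all 9 were called between HC and FB, 7 higher in HC and 2 lower, where 65% of all genes were called in either direction. The exceptions were Ccl2 (-2.62 ± 0.20 SE, adjusted p = 3.25e-09) and Ccl7 (-3.0 ± 0.19 SE, adjusted p = 1.31e-10), higher in FB. The largest excess in HC among members with reads in both was Ccl6 (11.56 ± 0.33 SE), and the smallest Ccl8 (1.42 ± 0.38 SE, adjusted p = 0.00312). On Day 1 the same 2 were higher in FB, by less (-1.03 ± 0.18 for Ccl2, -0.87 ± 0.19 for Ccl7, SE), and 68.8% of all genes were called. Ccl8 was higher in HC by 1.5 ± 0.45 (SE), or by 0.46 (adjusted p = 0.0242) without HC Day 1 replicate 4. All 9 were called higher in HC than in EC on Day 0 (26.5% of all genes) and Day 1 (31.2%). They were likewise higher than in CM on Day 0 (41.1%) and Day 1 (39.9%). For Ccl2 the excess of HC over EC was 4.07 ± 0.23 on Day 0 and 3.57 ± 0.20 on Day 1 (SE). Between the other isolates, Ccl2 and Ccl7 were highest in FB and lowest in CM on Days 0 and 1. On Day 0, 4 members were called between FB and EC (63.8% of all genes called), 4 between FB and CM (70.4%) and 2 between EC and CM (72.6%). FB exceeded EC on Day 0 by 6.69 ± 0.25 for Ccl2, 7.33 ± 0.24 for Ccl7 and 5.37 ± 0.56 for Ccl8 (SE), while Ccl6 was higher in EC (-1.69 ± 0.46 SE, adjusted p = 0.004). Without the EC libraries that stood apart, the Ccl8 difference was 7.45, and that of Ccl6 was -1.06 and not called (adjusted p = 0.116). On the log2(TPM + 1) and log2(TPM + 0.1) scales the Ccl6 difference was 0.01 and 0.02. EC exceeded CM by 2.88 ± 0.41 for Ccl2 and 1.53 ± 0.46 for Ccl7 (SE). On Day 1, 4 members were called between FB and EC (65.8%), 8 between FB and CM (70.3%) and 7 between EC and CM (71.4%). Ccl6 was then higher in CM than in FB (-5.47 ± 0.32 SE) and than in EC (-5.07 ± 0.31 SE), as was Ccl9 (-2.43 ± 0.27 and -3.09 ± 0.29, SE). These sizes depended on the processing. Over the alternatives, Ccl6 ranged from -5.81 to -0.54 between FB and CM, where not every alternative called it. Between EC and CM it ranged from -5.33 to -0.63, and Ccl9 from -3.26 to -0.09. The direction of Ccl9 between FB and CM depended on the scale, at 0.11 on log2(TPM + 1) and 0.49 on log2(TPM + 0.1) (limma, adjusted p = 0.551 and 0.0791). The Ccl9 call between FB and EC on Day 1 (0.66 ± 0.28 SE, adjusted p = 0.0475) was lost without EC Day 1 replicate 1, 3 or 4 or FB Day 1 replicate 2 or 4 (adjusted p up to 0.179). All these differences carry the isolation procedure and the preparation batch with them. The kind of deposited file, per transcript or per gene, may also differ between isolates, and its part was not tested.

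Per transcript length, the chemokine mixture differed by isolate. The summed TPM (relative abundance corrected for transcript length) of the 9 genes was 328.8 ± 95.7 in HC and 501.5 ± 118.8 in FB on Day 0, and 1224 ± 524.3 and 1027 ± 251.8 on Day 1. Ccl2 made up 65.9% to 74.3% of it in FB over the 6 days and Ccl7 23.9% to 32.8%, leaving little for the others. In EC, Ccl2 made up 61.0% to 76.6%. In HC the mixture was broad. Ccl6 had the largest share in HC on each day, 24.1% to 36.5%, and Ccl2 peaked at 19.5% on Day 1. Ccl8 went from 1.49% of the HC sum on Day 1 to 15.5% on Day 7. Shares of Ccl8, Ccl12 and Ccl4 rest on short transcripts, whose effective length is poorly known.

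**Figure D5:**
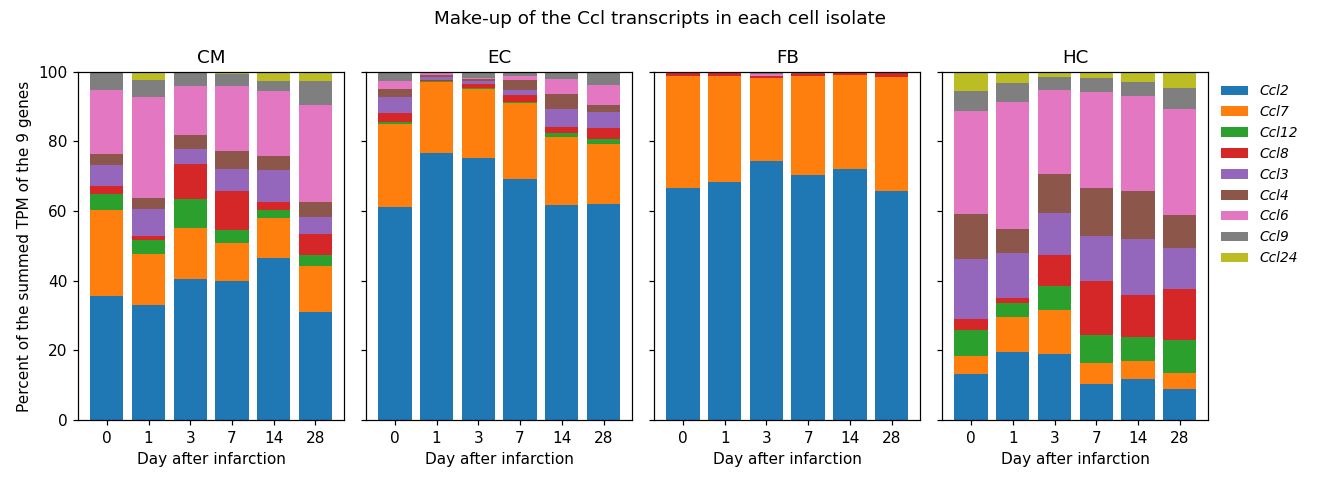
Share of each Ccl gene in the summed TPM of the 9 genes (percent, stacked bars from 0 to 100, mean of 4 libraries) by day in each isolate. FB and EC bars are mostly Ccl2 and Ccl7, and in HC the Ccl8 share grows from 1.49% on Day 1 to 15.5% on Day 7.

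Whether the change after infarction differed between HC and the other isolates was tested as the HC change minus the mean change in CM, EC and FB. On Day 1, 1 of 9 members was called lower, Ccl24 (-3.79 ± 0.85 SE, adjusted p = 0.00117), against 16.7% of all genes lower. On Day 3, 4 were called lower, against 16.8%. They were Ccl24 (-5.37 ± 1.01), Ccl9 (-3.53 ± 0.34, adjusted p = 3.76e-09), Ccl6 (-1.62 ± 0.56, adjusted p = 0.0308) and Ccl2 (-1.02 ± 0.32, adjusted p = 0.0171), all ± SE. The Ccl24 values rest on at most 1 read per library on Day 0 in the other isolates, so their size has no use, and on log2(TPM + 1) the Day 1 difference turned to 0.87 (limma, adjusted p = 0.00805). For Ccl9 the 4 changes were 0.99 in HC, 4.95 in CM, 2.57 in EC and 6.27 in FB, and for Ccl2 they were 2.03, 5.86, 3.29 and 0.23. The Ccl6 call was lost without HC Day 0 replicate 3 or HC Day 3 replicate 1, 2 or 3, and that of Ccl2 without HC Day 0 replicate 3 (adjusted p = 0.0560). On the log2(TPM + 1) scale, where genes near 0 hardly move, the difference turned positive for Ccl9 (0.54), Ccl6 (0.99) and Ccl2 (0.99).

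Of the 14 CC and atypical chemokine receptors listed, 12 were tested in HC, with 5 higher and 2 lower on Day 1 and 5 higher and 3 lower on Day 3. Over all genes in HC, 18% were called higher and 23.9% lower on Day 1, and 23.2% and 23.1% on Day 3. Ccr2, the receptor of Ccl2, Ccl7 and Ccl12, went from 130.7 CPM on Day 0 to 723.6 ± 58.3 CPM on Day 1 (2.47 ± 0.15 SE, adjusted p = 5.34e-11) and 648.9 ± 36.4 CPM on Day 3. Ccr1, the receptor of Ccl3, Ccl6 and Ccl9, went from 45.2 to 355.6 ± 33.3 CPM on Day 1 (2.98 ± 0.24 SE, adjusted p = 2.89e-09). Ccrl2, an atypical receptor, rose by 2.97 ± 0.28 (SE) on Day 1. Ccr3, which binds Ccl24, was higher by 1.51 ± 0.27 on Day 1 and 2.21 ± 0.27 on Day 3 (SE). Ccr8, the receptor of mouse Ccl8, was not called on Day 1 (-1.51 ± 0.65 SE, adjusted p = 0.0671) and lower on Day 3 (-1.69 ± 0.62 SE, adjusted p = 0.0308). In CM, 4 of 4 tested were higher on Day 1 and 3 of 4 on Day 3, against 6.8% and 16% of all genes, and Ccr1 and Ccr2 were called higher on Days 1, 3 and 7. Of 9 tested in EC, 2 were higher and 2 lower on each of Day 1 and Day 3, and of 8 in FB, 0 were higher and 2 lower on Day 1 and 1 higher and 3 lower on Day 3. Over all genes in EC, 9.86% were higher and 9.11% lower on Day 1 and 23.2% and 22.3% on Day 3, and in FB 11.6% and 6.36% on Day 1 and 25.8% and 23.3% on Day 3, so with so few receptors the shares of Day 3 in EC and FB are near those of all genes.

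Ackr2, an atypical receptor that takes up and degrades inflammatory CC chemokines, moved in opposite directions in EC and FB. It was called higher in EC on all 5 days, by 1.02 ± 0.19 on Day 1, 1.86 ± 0.19 on Day 3 and 2.34 ± 0.19 on Day 7 (SE, adjusted p = 0.000849, 1.34e-07 and 1.505e-08). In FB it was called lower on Days 1, 3, 7 and 14, from 30.5 CPM on Day 0 to 14.5 ± 2.62 CPM on Day 1 and 5.90 ± 2.94 CPM on Day 3 (-1.07 ± 0.21 and -2.17 ± 0.24, SE). Ackr1, which binds chemokines on venular endothelium, was higher in EC on Day 1 (0.314 to 2.47 ± 1.07 CPM, 2.99 ± 0.47 SE). Ackr4 was lower in FB on Day 1 (-1.20 ± 0.28 SE). The difference between EC and FB was not tested. The summed fibroblast markers in FB, given above, were also lower on Day 3, and their part in the FB values was not tested.

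Among 8 other Ccl ligands, 5 were tested in HC, of which Ccl17 (3.03 ± 0.69 SE) and Ccl22 (2.65 ± 0.49 SE) were higher and Ccl11 lower (-0.97 ± 0.37 SE) on Day 1. All 3 were scarce there, at most 5.65 CPM on average. The genes of the NF-kB pathway, which drives transcription of several Ccl genes, were listed as inducers, subunits and feedback genes. In HC 16 of 18 were called higher on Day 1 and 16 on Day 3, none lower, against the 18% and 23.2% of all genes given above. Il1b, an inducer, went from 50.3 to 1019 ± 281.2 CPM (4.34 ± 0.35 SE), Il1a rose by 5.61 ± 0.46 and Il6 by 3.63 ± 0.43 (SE). On Day 1, 6 of 17 were higher in CM (6.8% of all genes), 3 of 17 in EC (9.86%) and 2 of 17 in FB (11.6%), none lower. On Day 3 CM had 10 higher (16% of all genes), EC 9 higher and 1 lower (23.2% and 22.3%), and FB 3 higher and 5 lower (25.8% and 23.3%). The FB counts of both days are near the shares of all genes given above. Il6 in FB went from 748.4 to 326.3 ± 95.7 CPM by Day 3 (-1.19 ± 0.25 SE), when the summed fibroblast markers in FB were lower as well.

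The genes whose levels most resembled those of a member were found by Pearson's r of log2(CPM + 1) over the 24 group means, among 10728 genes. The nearest to Ccl2 was Ccl7 (0.988), followed by Slc41a2 (0.978), B4galt5 (0.973) and Ier3 (0.972). Those nearest to Ccl3 were Sla (0.998) and Ncf1 (0.998), and those nearest to Ccl12 were Fcgr1 (0.997), Clec4n (0.997) and Cd52 (0.996). Ccl6 was most like Msr1 (0.994), Itgam (0.993) and Wfdc17 (0.992). The nearest to Ccl8 was Gpx1 at 0.965, and that to Ccl9 was Rbm47 at 0.970. The group means of a cell type share a preparation batch, so these r values are a description.

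For 5 of the 9 members (Ccl12, Ccl8, Ccl9, Ccl6 and Ccl3) RefSeq holds a promoter (GRCm38.p6), and 4 are shown since their HC courses differed. The highest mean was on Day 7 for Ccl8, on Day 3 for Ccl12 and on Day 1 for Ccl6 and Ccl9. In all but Ccl9 the libraries of that day overlapped those of the next highest day. Each line is the 150 bases before the start, read in the direction of the gene, with motif matches in capitals. The motifs searched, on both strands of the 250 bases before the start, were TATAAA (the TATA box), TGANTCA (the AP-1 site), GAGGAA (the core bound by PU.1) and the NF-kB consensus.
Ccl12, chr11:82101695-82101844, plus strand: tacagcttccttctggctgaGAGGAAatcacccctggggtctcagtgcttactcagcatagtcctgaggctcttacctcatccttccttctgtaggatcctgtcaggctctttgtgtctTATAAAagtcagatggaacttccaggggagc
Ccl8, chr11:82115035-82115184, plus strand: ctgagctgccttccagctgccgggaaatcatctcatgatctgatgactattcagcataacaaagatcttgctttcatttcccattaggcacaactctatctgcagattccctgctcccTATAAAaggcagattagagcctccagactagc
Ccl9, chr11:83578637-83578786, minus strand: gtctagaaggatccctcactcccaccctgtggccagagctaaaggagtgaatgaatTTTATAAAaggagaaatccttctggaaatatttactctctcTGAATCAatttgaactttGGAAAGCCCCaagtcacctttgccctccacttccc
Ccl6, chr11:83593088-83593237, minus strand: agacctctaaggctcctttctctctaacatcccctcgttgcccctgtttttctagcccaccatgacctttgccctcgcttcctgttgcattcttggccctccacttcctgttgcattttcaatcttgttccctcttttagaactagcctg
TATAAA stood 31 to 26 bases before the start of Ccl12 and 32 to 27 before that of Ccl8, and in Ccl9 at 92 to 87, overlapping its own reverse complement, so 3 of 5 held it against 12.4% of 32851 promoters. GAGGAA was in 3 of 5 (Ccl12, Ccl3 and Ccl8), against 23.3%. Ccl9 alone held TGANTCA, at 53 to 47 bases before the start (6.75% of promoters), and a match to the NF-kB consensus on the minus strand of the window, at 35 to 26 (7.25%). Ccl6 held none of the 4. A match is a string of letters and shows neither binding nor a cause.

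In the transcript files of HC, Ccl2 also has a second transcript annotated as retaining an intron. It took 3.11% ± 0.377 of the Ccl2 reads on Day 1 and 8.30% ± 0.991 on Day 7, higher in all 4 Day 7 libraries than in any of Day 1 (two-sided exact permutation test, p = 0.0286, the smallest that 4 against 4 can give, and 0.0857 after adjustment over 3 genes). The corresponding shares of Ccl6 were 9.81% ± 6.75 and 9.76% ± 7.32, and those of Ccl24 5.39% ± 1.06 and 6.97% ± 2.59, with exact permutation p of 1 and 0.343 before adjustment. The Ccl2 difference did not pass 0.05 after adjustment. The number of intron-retaining reads also depends on how Salmon splits shared sequence between transcripts.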

How the data were processed

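Reads had been trimmed (Trim Galore), aligned to the mm10 build by STAR (version 2.28 in the submitters' notes) and quantified by Salmon. Each deposited file holds an expected count (an estimated read number) and a TPM per entry, both by the authors, from 1 library. In 56 files the entries are transcripts and in 40 genes. Transcripts were summed to genes with the GENCODE M21 annotation. Expected counts were rounded and tested with edgeR 4.0.16 (TMM scaling, filterByExpr, glmQLFit robust, glmQLFTest, R 4.3.3) on the 24 libraries of a cell type, or on 16 (cell types) or 32 (difference of changes) libraries, with Benjamini-Hochberg adjustment over all genes and a threshold of 0.05. Levels are CPM with TMM factors of a cell type's 24 libraries, or of all 96 where isolates are set side by side. Where a group had 3 or fewer reads in every library, levels are given and no fold. Alternatives were RLE scaling, no filter, ribosomal RNA genes left out, DESeq2 1.42.0, limma 3.58.1 on log2(TPM + 1) and log2(TPM + 0.1), a replicate block, omission of the 8 libraries that stood apart, and of each library in turn. The steps were tested on simulated data for HC Day 1 against Day 0 (18603 genes): edgeR recovered 57% of 100 genes changed by 1 on the log2 scale and 86% of 100 changed by 2, and 4.03% of its calls were false. The false share was 16.5% for DESeq2 and 5.88% for limma. The simulated counts followed the spread that edgeR itself had estimated, with few genes changed. In the measured comparison 41.95% of genes were called, so the false share under so broad a change was not tested. Motifs and the nearest genes by correlation were computed with Python 3.11.15. All 9 members were named in every group. Of the receptor, other Ccl and NF-kB lists, the named genes are Ccr1, Ccr2, Ccr3, Ccr8, Ackr2 and up to 3 called genes with the largest change on Day 1 and Day 3, apart from items not reported here. Members, lists and tests were chosen with earlier results of these data known.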

Additional observations from a re-analysis of the deposited data

Results flagged for a closer look

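Single libraries lay far from the other 3 of their group, by Dixon's ratio, in 7 of the 114 groups of a member and a cell type and day that were tested (mean of at least 1 CPM), where chance gives about 1 in 20. Ccl8 was high in HC Day 1 replicate 4, at 70.41 CPM against 13.04 to 13.12 CPM, and in HC Day 3 replicate 4, at 251.3 CPM against 86.17 to 91.8 CPM. Ccl7 was high in HC Day 28 replicate 3, at 53.62 CPM against 36.41 to 37.71 CPM. Ccl3 was low in HC Day 28 replicate 2, 1 of the libraries that stood apart, at 38.65 CPM against 111.5 to 124.5 CPM. Ccl2 was high in CM Day 7 replicate 3, at 2.564 CPM against 0.8515 to 1.119 CPM. Ccl6 was high in EC Day 14 replicate 4, at 2.843 CPM against 0.5365 to 0.8905 CPM, and Ccl9 in EC Day 7 replicate 3, at 10.65 CPM against 3.54 to 4.612 CPM. The cause of these was not tested.

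A change after infarction that differed between HC and the mean of the other isolates, by the interaction in edgeR, was found for Ccl24 on Day 1 (-3.79) and Day 3 (-5.37), and on Day 3 for Ccl6 (-1.62), Ccl9 (-3.53) and Ccl2 (-1.02). The Ccl24 values rest on at most 1 read per library on Day 0 in the other isolates and are no measure of size, and that of Day 1 turned to 0.87 on log2(TPM + 1) (limma, adjusted p = 0.00805). The Day 3 values of the other genes turned positive on that scale.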

How the results depend on the processing

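Of 210 member results called, all kept direction and call with RLE scaling and with ribosomal RNA genes left out, 193 without the filter, 204 with DESeq2, 138 with limma on log2(TPM + 1) (62 lost, 10 reversed) and 154 on log2(TPM + 0.1) (48 lost, 8 reversed). Omitting 1 library kept 1651 of 1800 and reversed none, and 37 of the 210 were lost at least once. The 8 libraries that stood apart bear on 47, of which 38 were kept, 8 lost and 1 reversed without them. Counts of members called, in either direction, are given below as the value under the alternative. The day alone means that day against Day 0. The share of all genes called also moved with the setting. On log2(TPM + 1), of 18144 genes in EC Day 28, 13001 were called higher and 289 lower. Of 18658 genes in FB Day 3, 561 were higher and 13508 lower. In CM Day 28, 0 of 14535 were called. Counts on the TPM scales are to be read against such shares. The cause of each change was not tested.

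Without the filter the counts were 3 (from 5) for FB Day 1, 2 (from 1) for FB Day 7, 1 (from 2) for FB Day 14, 1 (from 2) for FB Day 7 v Day 3, 1 (from 3) for HC Day 14, 3 (from 5) for HC Day 28. With DESeq2 the counts were 1 (from 0) for CM Day 14 v Day 7, 2 (from 0) for EC Day 14 v Day 7, 2 (from 1) for FB Day 7, 5 (from 2) for FB Day 3 v Day 1, 1 (from 0) for FB Day 14 v Day 7, 2 (from 1) for difference of changes on Day 1. Without the 8 libraries that stood apart the counts were 0 (from 2) for EC Day 14, 1 (from 2) for EC Day 28, 1 (from 2) for FB Day 3 v Day 1, 1 (from 2) for FB Day 7 v Day 3, 1 (from 0) for FB Day 28 v Day 14, 3 (from 5) for HC Day 28. With limma on log2(TPM + 1) the counts were 2 (from 7) for CM Day 1, 2 (from 8) for CM Day 7, 0 (from 5) for CM Day 14, 0 (from 2) for CM Day 28, 0 (from 2) for CM Day 28 v Day 14, 4 (from 2) for EC Day 14, 6 (from 2) for EC Day 28, 1 (from 0) for EC Day 7 v Day 3, 0 (from 5) for FB Day 1, 5 (from 2) for FB Day 3, 0 (from 1) for FB Day 7, 1 (from 2) for FB Day 14, 0 (from 1) for FB Day 28, 5 (from 2) for FB Day 3 v Day 1, 4 (from 8) for HC Day 1, 1 (from 3) for HC Day 14, 2 (from 5) for HC Day 28, 1 (from 4) for HC Day 3 v Day 1, 0 (from 3) for HC Day 7 v Day 3, 1 (from 7) for HC Day 7 v Day 1, 6 (from 1) for difference of changes on Day 1, 1 (from 2) for EC v CM (Day 0), 3 (from 8) for FB v CM (Day 1), 3 (from 7) for EC v CM (Day 1). With limma on log2(TPM + 0.1) the counts were 3 (from 5) for CM Day 14, 0 (from 2) for CM Day 28, 1 (from 0) for CM Day 14 v Day 7, 0 (from 2) for CM Day 28 v Day 14, 5 (from 2) for EC Day 14, 6 (from 2) for EC Day 28, 2 (from 0) for EC Day 7 v Day 3, 0 (from 5) for FB Day 1, 6 (from 2) for FB Day 3, 0 (from 2) for FB Day 14, 0 (from 1) for FB Day 28, 5 (from 2) for FB Day 3 v Day 1, 4 (from 8) for HC Day 1, 1 (from 3) for HC Day 14, 2 (from 5) for HC Day 28, 1 (from 4) for HC Day 3 v Day 1, 0 (from 3) for HC Day 7 v Day 3, 1 (from 7) for HC Day 7 v Day 1, 2 (from 1) for difference of changes on Day 1, 1 (from 4) for difference of changes on Day 3, 4 (from 2) for EC v CM (Day 0), 4 (from 7) for EC v CM (Day 1).

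The replicate numbers were not taken to pair the libraries, since nothing in the sources used here says that a number marks shared animals and not every pair's correlation was over 0.1. The correlation of same-numbered libraries' deviations from group means had a median of -0.0379 in EC, 0.0142 in FB and 0.0828 in HC, and of -0.0315 (Day 7) to 0.0988 (Day 28) between cell types. In CM it was 0.408, against -0.155 for other numbers, with 46 of 60 pairs over 0.1 (the lowest -0.444) and the own number highest for 33 of 60, a hint from the data and not from the design. With the replicate block, 205 of the 210 calls were kept, the 1 lost between cell types being Ccl9 for FB v EC (Day 1) at 0.67 (adjusted p = 0.0509), and the counts were 1 (from 2) for FB Day 14, 1 (from 2) for FB Day 7 v Day 3, 2 (from 1) for difference of changes on Day 1.

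On leaving out 1 library at a time, the counts that moved by over 1.5 times ranged over 1 to 3 (from 2) for CM Day 28, 0 to 3 (from 2) for CM Day 28 v Day 14, 3 to 5 (from 5) for EC Day 7, 0 to 2 (from 2) for EC Day 14, 1 to 3 (from 2) for EC Day 28, 1 to 4 (from 5) for FB Day 1, 1 to 2 (from 2) for FB Day 14, 2 to 4 (from 2) for FB Day 3 v Day 1, 1 to 2 (from 2) for FB Day 7 v Day 3, 0 to 1 (from 0) for FB Day 14 v Day 7, 1 to 2 (from 3) for HC Day 14, 1 to 5 (from 5) for HC Day 28, 1 to 2 (from 1) for difference of changes on Day 1, 2 to 5 (from 4) for difference of changes on Day 3.

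Reversed values on the log2 scale were, for FB Day 7 v Day 3, Ccl6 at 0.73 without the 8 libraries and Ccl9 at 0.07 on log2(TPM + 0.1). On both TPM scales Ccl9 was at 0 for HC Day 7 v Day 3, and on log2(TPM + 1) and log2(TPM + 0.1) respectively Ccl24 was at 0.87 and 0.44 in the difference of changes on Day 1, Ccl6 at 0.01 and 0.02 for FB v EC (Day 0) and at 0.03 and 0.21 for FB v CM (Day 0), and for FB v CM (Day 1) Ccl3 was at 0 and 0.06, Ccl24 at 0.02 and 0.11 and Ccl9 at 0.11 and 0.49. On log2(TPM + 1) the difference of changes on Day 3 was 0.99 for Ccl6, 0.54 for Ccl9 and 0.99 for Ccl2. The TPM scales also moved the median change of all genes, on log2(TPM + 1) to -0.7 for FB Day 3, 0.507 for EC Day 28 and 0.292 for HC Day 7, from -0.021, 0.034 and 0.026. Depth limits the low members: in CM, EC and FB, groups with 3 or fewer reads in every library give no fold.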
